A study of Mus musculus with 10 samples.

Results

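The muscle miRNAs of the miR-1 and miR-133 clusters were followed in the hearts of C57Bl6N males. All had undergone transverse aortic constriction 1 week earlier, an operation that narrows the aorta and loads the left heart with pressure. The 2 groups were 5 libraries labelled CITED4 knockout and 5 labelled floxed control, in which the gene is flanked by recombination sites but intact. Both groups had the operation, and small RNA was sequenced from heart. The 7 members were taken by name, as the mature arms of the miR-1a/miR-133a loci and of the related miR-206/miR-133b locus: mmu-miR-1a-3p, mmu-miR-1a-1-5p, mmu-miR-1a-2-5p, mmu-miR-133a-3p, mmu-miR-133a-5p, mmu-miR-133b-3p and mmu-miR-206-3p. They are 7 of the 1139 mature miRNAs in the deposited tables, and all 7 passed the filter on low counts, which left 457 miRNAs for testing. The promoter that drives the recombinase is not given in the sources used here, the genotype could not be checked because these counts hold no Cited4 messenger RNA, and unoperated hearts were not analysed here.

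miR-1 and miR-133 are made from shared primary transcripts in heart and skeletal muscle, under muscle transcription factors such as SRF, MEF2 and, in skeletal muscle, MyoD. miR-1 promotes differentiation of muscle cells and restrains growth genes. miR-133 represses SRF and cell cycle genes in heart muscle, and both are known to decline in hypertrophied hearts. miR-206 has the seed of miR-1 and is best known from skeletal muscle, where it is made with miR-133b. The seed is the stretch of bases 2 to 8 of a mature miRNA, which sets most of its target choice.

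The sequences of 3 of the 7 members were in the RefSeq table for GRCm38.p6. They are shown because they carry the features that the counts separate: both guide seeds of the group, and an arm that belongs to only 1 of the miR-1a loci. Capitals mark the seed, and all are written 5′ to 3′ on the plus strand. miR-206-3p lies at chr1:20679055-20679076, miR-133b-3p at chr1:20682834-20682855 and miR-1a-1-5p at chr2:180389057-180389079. miR-206-5p, the opposite arm of the miR-206 hairpin at chr1:20679017-20679039, is added for comparison with miR-1a-1-5p.
miR-206-3p: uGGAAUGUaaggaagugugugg
miR-133b-3p: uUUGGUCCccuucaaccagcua
miR-1a-1-5p: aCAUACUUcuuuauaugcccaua
miR-206-5p: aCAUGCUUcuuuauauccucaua
The seed GGAAUGU is that of miR-1a-3p and miR-206-3p, and UUGGUCC is that of miR-133a-3p and miR-133b-3p. The 2 opposite arms shared 20 of 23 bases. Read from miR-206-5p to miR-1a-1-5p and counted from 1 at the 5′ end, they differed by G5A, C17G and U19C, so that 1 of the 3 differences lies in the seed.

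The hairpins of the chromosome 1 locus show how an arm sits in its precursor. Capitals here mark the counted 3p arm, within the 73 bases of Mir206 at chr1:20679010-20679082 and the 119 bases of Mir133b at chr1:20682769-20682887.
Mir206: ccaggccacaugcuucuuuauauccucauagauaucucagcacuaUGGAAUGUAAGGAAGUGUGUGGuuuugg
Mir133b: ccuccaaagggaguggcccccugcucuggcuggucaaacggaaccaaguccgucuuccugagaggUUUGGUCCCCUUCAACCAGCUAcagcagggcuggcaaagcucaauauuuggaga
The hairpins are 3686 bases apart on the plus strand. GENCODE release M21 places Mir133b wholly inside exons of the long noncoding RNA Gm28653, which RefSeq calls Lincmd1 (chr1:20669882-20682958), and 60 of the 73 bases of Mir206 in an exon of 1 of its transcripts.

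On chromosome 2 the hairpins of Mir1a-1 (chr2:180389048-180389124) and Mir133a-2 (chr2:180398379-180398482) are 9254 bases apart, within the RefSeq long noncoding RNA Mir1a-1hg (chr2:180385604-180401802). Mir1a-2 and Mir133a-1 form the second such pair, on chromosome 18. Both miR-1a loci yield the same 3p arm, as do both miR-133a loci, so miR-1a-3p and miR-133a-3p sum the 2 loci, while the 5p arms of miR-1a are counted per locus. miR-133a-3p and miR-133b-3p differ only at their 3′ end. How reads that match several miRNAs were assigned is not given in the sources used here, so the split between such close relatives is uncertain.

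The libraries held 8909932 to 18369483 counts in the knockout group and 7526091 to 11608900 in the control group. Levels are given as CPM, counts per 1000000 of a library total that was scaled by its TMM factor, so the summed values differ between libraries. Counts of different mature miRNAs also carry the capture bias of the library kit, so an order of levels is an order of counts. The heart myosin miRNA miR-208a-3p was at 431 ± 121 CPM in knockout and 603 ± 253 CPM in control libraries (SD, n = 5 each, as for all CPM values), while the neural miR-124-3p had 0 counts in all 10 libraries. Of the neural markers, miR-9-5p was present at 327 ± 114 CPM and 316 ± 76.9 CPM in knockout and control libraries. Control replicate 3, the shallowest library, was the highest or lowest control for 5 of the 7 members, and results are given without it where that matters.

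miR-1a-3p, the guide arm of miR-1, was the most abundant of all 1139 miRNAs. Knockout replicates 1 to 5 had 221947, 217059, 382266, 361450 and 316701 CPM, and control replicates 1 to 5 had 238856, 312915, 243273, 497387 and 463572 CPM. The groups overlapped over most of their range, with the highest levels in control replicates 4 and 5. Means were 299884 ± 77127 CPM in knockout and 351201 ± 122202 CPM in control libraries, or -0.23 ± 0.26 as log2 fold change (SE, 95% interval -0.79 to 0.33, adjusted p = 0.69 in edgeR's quasi-likelihood test). The interval spans differences in both directions. The value was -0.06 without control replicate 4, -0.09 without control replicate 5, -0.10 without knockout replicate 2, -0.11 without knockout replicate 1 and -0.08 with library totals only. In the other direction, it was -0.32 without control replicate 1, -0.31 without control replicate 3 or knockout replicate 3 and -0.29 without knockout replicate 4. By itself this arm made up 99.5% ± 0.0676 of the counts of the 7 members in knockout and 99.4% ± 0.239 in control libraries. Of all counts, without TMM scaling, its share ranged from 24.8% to 35.5% in knockout and from 27.0% to 39.3% in control libraries.

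miR-133a-3p, the guide arm of miR-133a, had 1014, 994, 1329, 1469 and 1078 CPM in knockout replicates 1 to 5. In control replicates 1 to 5 it had 1246, 1267, 1970, 1756 and 1860 CPM. All 5 knockout libraries lay below the control mean, yet knockout replicates 3 and 4 were above control replicates 1 and 2, so the groups overlapped. Means were 1177 ± 211 CPM in knockout and 1620 ± 340 CPM in control libraries, at a log2 fold change of -0.46 ± 0.17 (SE, 95% interval -0.84 to -0.09). In edgeR's quasi-likelihood test it did not pass (adjusted p = 0.64 over 457 miRNAs, unadjusted p = 0.020).

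miR-133b-3p, its near twin from the chromosome 1 locus, followed the same order of libraries. It had 240, 215, 336, 387 and 279 CPM in knockout replicates 1 to 5 and 291, 304, 543, 476 and 536 CPM in control replicates 1 to 5. Again 5 of 5 knockout libraries were below the control mean while the ranges overlapped. This also held for the member miR-1a-2-5p and for the non-members miR-208a-3p, miR-145a-5p and miR-142a-5p. The share over all tested miRNAs was not counted. Means of 291 ± 70.4 CPM in knockout and 430 ± 124 CPM in control libraries gave a log2 fold change of -0.56 ± 0.22 (SE, 95% interval -1.04 to -0.09). It too missed the threshold in edgeR's test (adjusted p = 0.64, unadjusted p = 0.024). Without control replicate 3 the values were -0.44 for miR-133b-3p (unadjusted p = 0.080) and -0.35 for miR-133a-3p (unadjusted p = 0.067) in the same edgeR test. The unadjusted p of both was also above 0.05 without knockout replicate 1, 2 or 5 or control replicate 5, and that of miR-133b-3p was so without control replicate 4. With library totals only, edgeR gave -0.36 for miR-133a-3p (unadjusted p = 0.063) and -0.46 for miR-133b-3p (unadjusted p = 0.048).

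**Figure D1:**
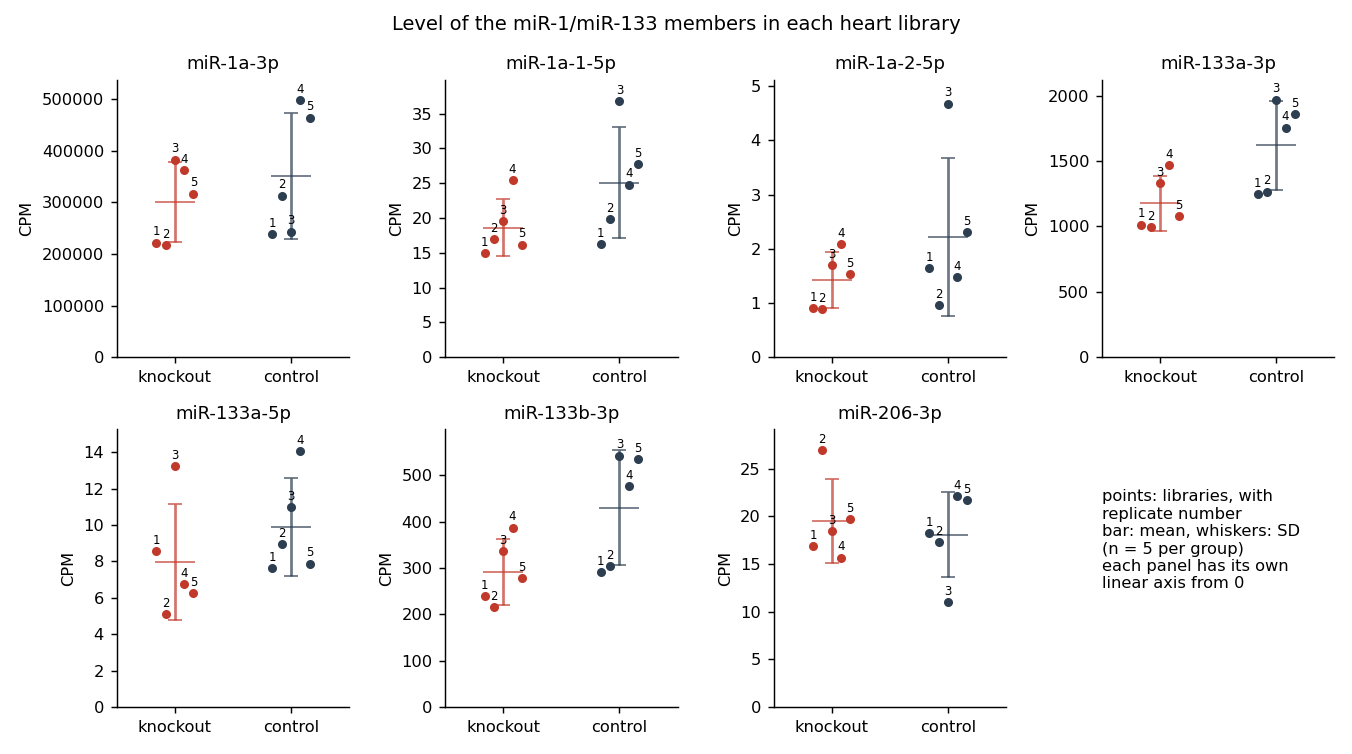
CPM of each member (vertical axes, linear from 0) in 5 knockout and 5 control libraries; points are libraries with their replicate number, bars the mean and whiskers the SD. Groups overlap in all 7 panels. All knockout points lie below the control mean for miR-133a-3p (1620 CPM), miR-133b-3p (430 CPM) and miR-1a-2-5p (2.22 CPM).

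The 5p arms, the strands mostly discarded when the miRNA is loaded, were rare. miR-1a-1-5p, specific to the chromosome 2 locus, had 15.0, 17.0, 19.5, 25.4 and 16.2 CPM in knockout replicates 1 to 5 and 16.2, 19.9, 36.9, 24.8 and 27.8 CPM in control replicates 1 to 5. The groups overlapped, and control replicate 3 was the highest library. Means were 18.6 ± 4.15 CPM in knockout and 25.1 ± 7.93 CPM in control libraries (log2 fold change -0.43 ± 0.23 SE, 95% interval -0.93 to 0.07, adjusted p = 0.64 in edgeR's test). Without control replicate 3 the log2 fold change was -0.22.

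miR-1a-2-5p, from the second miR-1a locus, was the rarest member, with 11, 9, 27, 22 and 28 counts in knockout replicates 1 to 5 and 19, 11, 40, 12 and 19 counts in control replicates 1 to 5. The highest count of the 10, 40, came from the shallowest library, control replicate 3. In CPM, 5 of 5 knockout libraries lay below the control mean, and the groups overlapped. Means were 1.42 ± 0.522 CPM in knockout and 2.22 ± 1.46 CPM in control libraries, with a log2 fold change of -0.61 ± 0.44 (SE, 95% interval -1.56 to 0.34, adjusted p = 0.64 in edgeR's test). Without control replicate 3 it was -0.12. At a count of 0 the shallowest library would allow up to 0.399 CPM of its unscaled total (3 counts), so this arm lies only a few times above the floor.

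miR-133a-5p had 8.58, 5.11, 13.3, 6.74 and 6.25 CPM in knockout replicates 1 to 5 and 7.63, 8.97, 11, 14.1 and 7.88 CPM in control replicates 1 to 5. Knockout replicates 2, 4 and 5 lay below every control, while knockout replicate 3 was above all controls but replicate 4, so the groups overlapped. Means were 7.99 ± 3.20 CPM in knockout and 9.91 ± 2.68 CPM in control libraries (log2 fold change -0.30 ± 0.28 SE, 95% interval -0.90 to 0.30, adjusted p = 0.66 in edgeR's test). It was -0.54 without knockout replicate 3 (adjusted p = 0.56, unadjusted p = 0.048, edgeR), -0.15 without knockout replicate 2, -0.13 without control replicate 4 and -0.20 with library totals only.

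miR-206-3p, the skeletal muscle relative of miR-1, was counted in every library. It had 16.8, 26.9, 18.4, 15.7 and 19.7 CPM in knockout replicates 1 to 5 and 18.2, 17.3, 11, 22.1 and 21.7 CPM in control replicates 1 to 5. It was the 1 member with a higher mean in knockout, 19.5 ± 4.42 CPM against 18.1 ± 4.47 CPM in control libraries, and the ranges overlapped. The log2 fold change was 0.11 ± 0.22 (SE, 95% interval -0.36 to 0.58, adjusted p = 0.82 in edgeR's test). This became 0.01 without control replicate 3, its lowest library, 0.0031 without knockout replicate 2, its highest, and 0.27 with library totals only. It lay between 0.19 and 0.20 without knockout replicate 1 or 4 or control replicate 4 or 5. These levels rest on 94 to 360 counts per library, beside 2079181 to 6054819 of miR-1a-3p, which has the same seed. How many of them are reads of miR-1a-3p was not tested.

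In rank of mean CPM over all libraries, miR-1a-3p stood at 1, miR-133a-3p at 46 and miR-133b-3p at 89 of 1139. miR-1a-1-5p stood at 223, miR-206-3p at 235, miR-133a-5p at 285 and miR-1a-2-5p at 408. The neighbours miR-1a-1-5p (15.0 to 36.9 CPM) and miR-206-3p (11 to 26.9 CPM) overlapped in their spread over libraries. miR-206-3p overlapped in turn with miR-133a-5p (5.11 to 14.1 CPM). miR-1a-3p, miR-133a-3p and miR-133b-3p did not overlap with each other or with the rest, and neither did miR-133a-5p with miR-1a-2-5p.

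As a group, 0 of the 7 members passed an adjusted p of 0.05, against 0% of all 457 tested miRNAs. At an unadjusted p under 0.05 there were 2 of 7, miR-133a-3p and miR-133b-3p, against 6.35% of all tested (29 miRNAs), and these 2 are close relatives whose reads may be shared. Of the 7, 6 had a lower mean in knockout, where 46.8% of all tested miRNAs did. The median log2 fold change of the members was -0.43, beside 0.03 over all tested. The members are not independent units, since some are arms of the same hairpins and some vary together. Over the 10 libraries r was 0.99 for miR-133a-3p with miR-133b-3p and 0.93 for miR-1a-1-5p with miR-133a-3p. A shift of the group as a whole was not tested. In 0 of 7 the groups did not overlap, against 0.656% of all tested. DESeq2 also called 0 miRNAs, with 45 of 1105 under 0.05 before adjustment, as did limma on the deposited normalized values, with 22 of 457.

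Other muscle miRNAs give the setting for these values. All 8 arms looked up passed the filter, 6 with a lower and 2 with a higher mean in knockout, at a median log2 fold change of -0.43, and 0 passed the test (0 also at an unadjusted p under 0.05). miR-499-5p, made from an intron of the myosin gene Myh7b, was at 2376 ± 837 CPM in knockout and 3003 ± 1141 CPM in control libraries (log2 fold change -0.34 ± 0.27 SE). miR-486a-5p, made in muscle and blood cells, was at 16711 ± 5243 CPM in knockout and 23542 ± 7515 CPM in control libraries. The 2 with a higher mean were the arms of miR-208b, from the fetal myosin gene Myh7, with log2 fold changes of 0.35 for miR-208b-3p and 0.25 for miR-208b-5p.

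**Figure D2:**
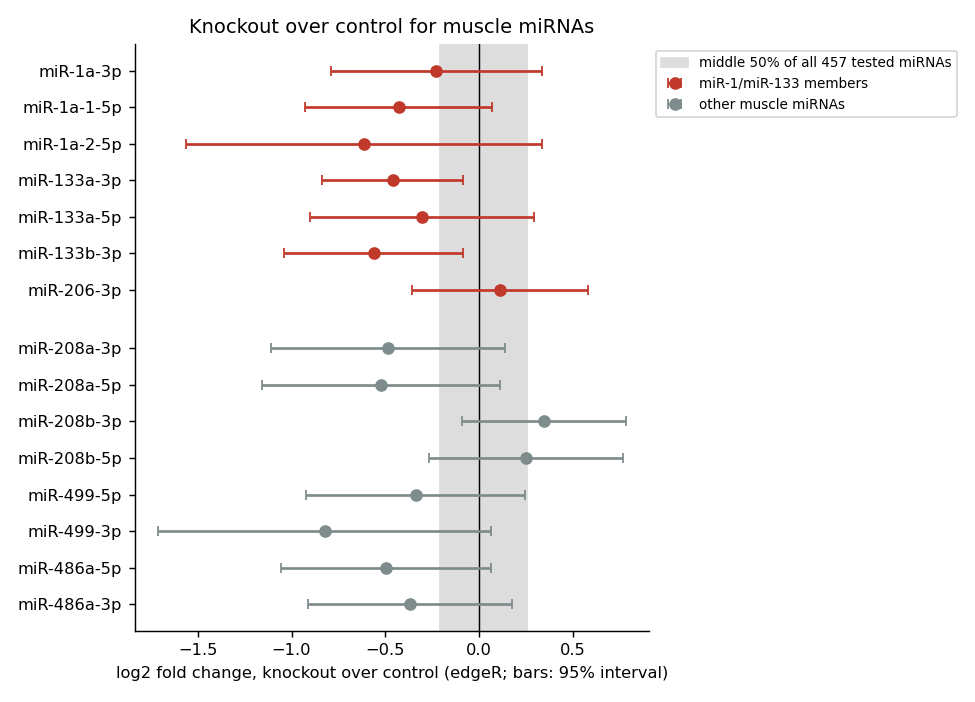
Log2 fold change of knockout over control from edgeR (horizontal axis) with 95% intervals for the 7 members and 8 other muscle arms; the grey band holds the middle 50% of all 457 tested miRNAs. The intervals of miR-133a-3p (-0.84 to -0.09) and miR-133b-3p (-1.04 to -0.09) lie below 0, the other 13 hold it.

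Hearts hold other cell types, and in bulk RNA fewer muscle cells and less of a miRNA per muscle cell cannot be told apart. Summed levels of marker lists were as follows, and the groups overlapped in each. The 3 fibroblast and mesenchymal markers ranged from 12330 to 24558 CPM in knockout and from 9182 to 23239 CPM in control libraries, with 3 of 3 means higher in knockout. The 2 endothelial markers ranged from 25220 to 34439 CPM in knockout and from 26217 to 35314 CPM in control libraries, with 2 of 2 lower. The 2 smooth muscle markers ranged from 26121 to 32862 CPM in knockout and from 27822 to 33667 CPM in control libraries, with 2 of 2 lower. The 4 leukocyte markers ranged from 814 to 1197 CPM in knockout and from 908 to 1117 CPM in control libraries, with 2 lower and 2 higher. Of the 2 erythroid markers, miR-144-3p ranged from 100.5 to 596 CPM in knockout and from 133.4 to 816 CPM in control libraries, and miR-451a was not analysed here. The 2 epithelial markers ranged from 11.3 to 13.7 CPM in knockout and from 9.71 to 13.3 CPM in control libraries. The liver marker miR-122-5p ranged from 39.2 to 68.1 CPM in knockout and from 29.0 to 108 CPM in control libraries. Their part in the members' values was not tested.

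Ratios of counts within a library need no scaling between libraries. They ask whether neighbours on a transcript, or arms of a hairpin, kept their proportion in knockout hearts, and 8 were compared. For each, 0.5 was added to both counts, and the difference of mean log2 ratios was tested by an exact two-sided permutation test over every assignment of libraries to groups, which cannot give a p below 0.0079. None of the 8 passed, with p from 0.14 to 0.75 and an adjusted p of 0.75 in each by the exact permutation test.

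For miR-133a-3p and miR-1a-3p, which share primary transcripts, there were 219, 218, 288, 246 and 294 counts of miR-1a-3p for each count of miR-133a-3p in knockout replicates 1 to 5. In control replicates 1 to 5 there were 192, 247, 123, 283 and 249. Control replicate 3 stood lowest, and the other 9 libraries lay between 192 and 294. The log2 ratio of miR-133a-3p over miR-1a-3p was 0.25 lower in knockout, at -7.97 ± 0.206 in knockout and -7.72 ± 0.476 in control libraries (exact permutation test, p = 0.32). Its difference of -0.25 had an interval from -0.82 to 0.20, taken as all shifts that the exact test did not reject. Without control replicate 3 the difference was -0.06.

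miR-133b-3p took a steady share beside miR-133a-3p. Counts of miR-133b-3p per count of miR-133a-3p were 0.236, 0.216, 0.252, 0.264 and 0.258 in knockout replicates 1 to 5 and 0.233, 0.240, 0.275, 0.271 and 0.288 in control replicates 1 to 5. All 10 libraries lay between 0.216 and 0.288, and the groups overlapped. The log2 difference, knockout minus control, was -0.09 with an interval from -0.28 to 0.11 (exact permutation test, p = 0.29), the narrowest of the 8.

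Arm use was lopsided in every library. The 3p arm of miR-133a had 118, 195, 100, 218 and 173 counts for each count of the 5p arm in knockout replicates 1 to 5, and 163, 141, 179, 125 and 236 in control replicates 1 to 5. miR-1a-3p had 12140 to 18020 counts per count of its 5p arms in knockout libraries (median 13943) and 5857 to 18918 in control libraries (median 15020). The 5857 belonged to control replicate 3, and the other controls began at 13379. The log2 differences, knockout minus control, were -0.10 for miR-133a (interval -0.74 to 0.52, exact permutation test, p = 0.71) and 0.21 for miR-1a (interval -0.39 to 1.02, exact permutation test, p = 0.67). The miR-1a difference was -0.07 without control replicate 3 and -0.11 between medians. The miR-133a difference also turned, to 0.056 without knockout replicate 3, 0.031 without control replicate 5 and 0.081 between medians.

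Because the miR-1a 5p arms are counted per locus, their ratio compares the counted 5p arms of the 2 loci. These are rare, mostly discarded strands that carry the capture bias named above, so the output of each locus was not measured. miR-1a-1-5p made up 93.0% ± 1.59 of both arms in knockout and 92.3% ± 2.68 in control libraries, so the chromosome 2 arm prevailed in all 10. Per count of miR-1a-2-5p there were 16.5, 19.2, 11.4, 12.2 and 10.5 counts of miR-1a-1-5p in knockout replicates 1 to 5, and 9.84, 20.5, 7.88, 16.8 and 12.1 in control replicates 1 to 5. The groups overlapped almost fully, and the log2 difference was 0.11 (interval -0.64 to 0.77, exact permutation test, p = 0.75). Leaving out control replicate 3 gave -0.06, and leaving out knockout replicate 2 gave -0.01. Counts of miR-1a-2-5p from 9 to 40 limit the precision of this ratio.

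The ratio of miR-206-3p to miR-133b-3p, from the chromosome 1 pair, had the largest difference of the 8. Counts of miR-206-3p per count of miR-133b-3p were 0.0702, 0.125, 0.0549, 0.0405 and 0.0709 in knockout replicates 1 to 5 and 0.0626, 0.0570, 0.0203, 0.0464 and 0.0405 in control replicates 1 to 5. Knockout replicate 2 was highest and control replicate 3 lowest. The log2 ratio was 0.67 higher in knockout (interval -0.19 to 1.63, exact permutation test, p = 0.14), 0.40 higher without control replicate 3 and 0.44 higher without knockout replicate 2. Among the counts of miR-206-3p, miR-1a-3p and miR-1b-3p together, miR-206-3p made up 0.00707% ± 0.00324 in knockout and 0.00536% ± 0.00134 in control libraries. How many reads miR-206-3p shares with miR-1a-3p was not tested.

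Against miR-499-5p, a muscle miRNA of another locus, the log2 difference was 0.12 for miR-1a-3p (interval -0.31 to 0.53, exact permutation test, p = 0.53) and -0.13 for miR-133a-3p (interval -0.63 to 0.36, exact permutation test, p = 0.61). Counts of miR-133a-3p per count of miR-499-5p were 0.552, 0.546, 0.555, 0.385 and 0.536 in knockout replicates 1 to 5 and 0.618, 0.596, 0.821, 0.433 and 0.421 in control replicates 1 to 5. Knockout replicate 4 stood apart from the other 4 knockouts. Without control replicate 3 the log2 difference for miR-133a-3p was 0.0033.

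**Figure D3:**
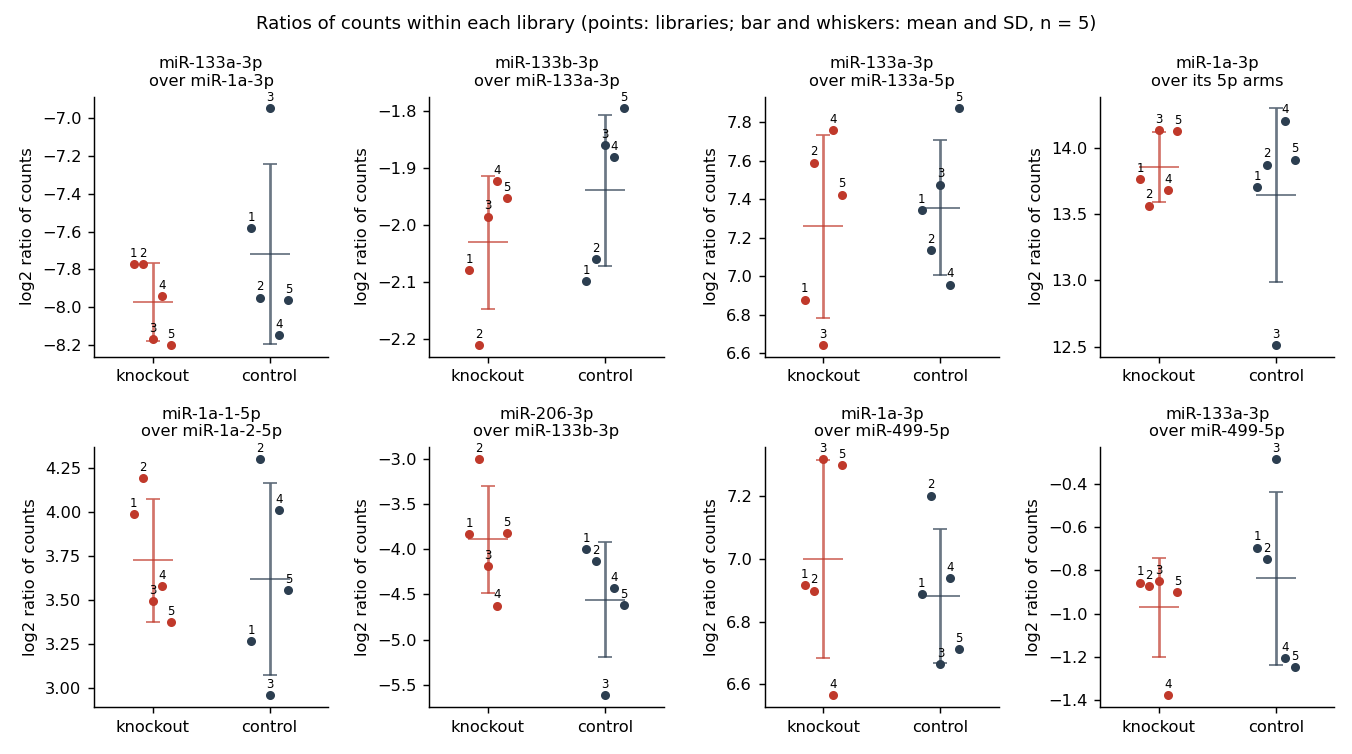
Log2 ratio of counts within each library (vertical axes) for 8 ratios in 5 knockout and 5 control libraries; points are libraries with their replicate number, bars the mean and whiskers the SD. Groups overlap in each panel. Control replicate 3 lies lowest for miR-1a-3p over its 5p arms (5857 counts per count), miR-1a-1-5p over miR-1a-2-5p (7.9) and miR-206-3p over miR-133b-3p (0.0203). It lies highest for miR-133a-3p over miR-1a-3p (0.0081) and over miR-499-5p (0.821).

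Across the 10 libraries, 6 relations between log2 CPM values were computed, and 2 more after the data were seen. All share libraries and scaling. miR-133a-3p and miR-133b-3p kept one order of libraries (Pearson r = 0.99, permutation p = 1e-05, adjusted p = 6e-05; Spearman rho = 1.00, permutation p = 1e-05, adjusted p = 6e-05), where 1e-05 is the smallest p the permutations can give. Without the 2 libraries farthest from the median r was 0.98, and within knockout and control libraries it was 0.97 and 1.00. How many reads these 2 close relatives share was not tested.

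miR-1a-3p and miR-133a-3p, made from the same transcripts, were less alike. Pearson r was 0.58 (permutation p = 0.087, adjusted p = 0.12) and Spearman rho 0.67 (permutation p = 0.040, adjusted p = 0.060). Without control replicates 4 and 5, the farthest from the median in miR-1a-3p, r was 0.25. Within knockout and control libraries r was 0.88 and 0.39. Without control replicate 3, which had the highest miR-133a-3p and a low miR-1a-3p, r was 0.90 (permutation p = 0.0020, adjusted p = 0.0040). With library totals only r was 0.038 (permutation p = 0.93, adjusted p = 0.93), and with totals without the members it was 0.37 (permutation p = 0.29, adjusted p = 0.29). The size of this relation therefore depends on the scaling and on single libraries.

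The chromosome 2 arm miR-1a-1-5p, a relation looked up after the data were seen, followed miR-133a-3p more closely than its own guide arm in r. With miR-133a-3p Pearson r was 0.93 (permutation p = 8e-05, adjusted over 8 relations p = 0.00032) and rho 0.90 (permutation p = 0.00084, adjusted p = 0.0022), and r was 0.88 without control replicates 3 and 5. With miR-1a-3p r was 0.40 (permutation p = 0.25, adjusted p = 0.28) and rho 0.50 (permutation p = 0.15, adjusted p = 0.17). That r became 0.82 without control replicates 3 and 5. Whether the 2 correlations differ was not tested. The adjustment over 8 relations does not cover the choice of these pairs after the data were seen, so their p-values are descriptive.

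**Figure D4:**
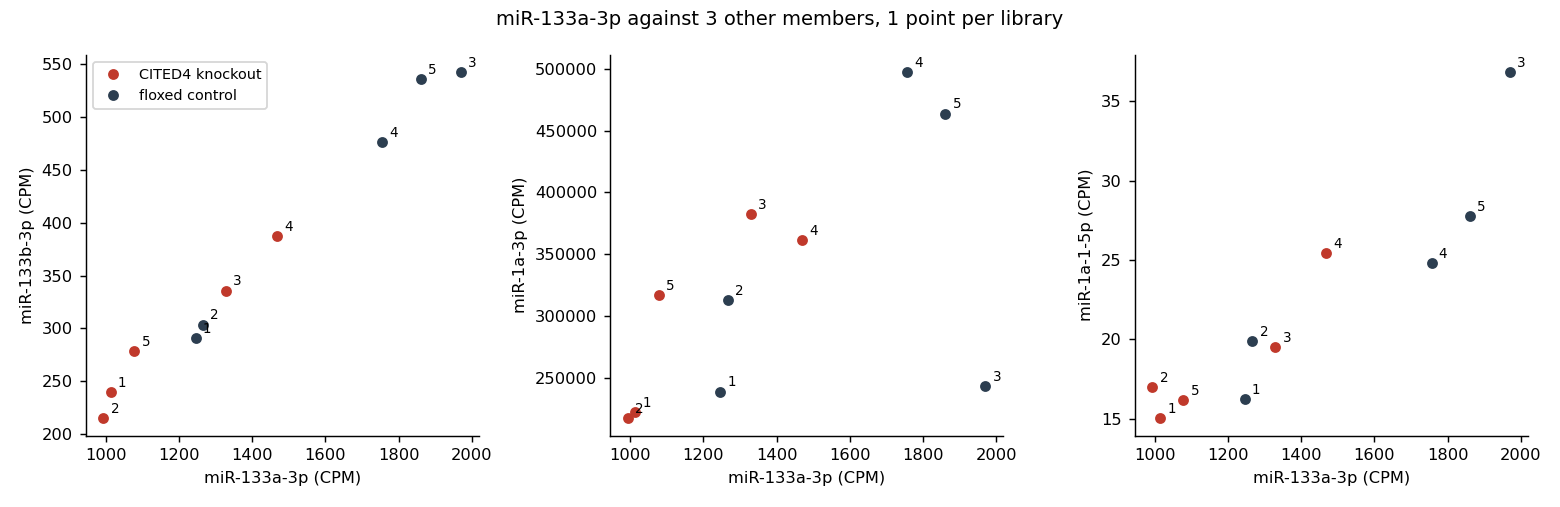
CPM of miR-133b-3p, miR-1a-3p and miR-1a-1-5p (vertical axes) against miR-133a-3p (horizontal axes, all linear), 1 numbered point per library. Points fall near a line for miR-133b-3p (r = 0.99), while control replicate 3 falls away from the others for miR-1a-3p, at 243273 CPM against 463572 and 497387 CPM in control replicates 5 and 4.

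With the muscle miRNA miR-499-5p, miR-1a-3p had r = 0.85 (permutation p = 0.0018, adjusted p = 0.0054) and rho = 0.84 (permutation p = 0.0039, adjusted p = 0.0078), and r was 0.65 without control replicates 4 and 5. miR-133a-3p had r = 0.77 (permutation p = 0.011, adjusted p = 0.023) and rho = 0.93 (permutation p = 0.00041, adjusted p = 0.0012) with miR-499-5p, and r was 0.92 without control replicates 3 and 5. With library totals only, both lost the threshold (r = 0.66, adjusted p = 0.084, and r = 0.54, adjusted p = 0.15, permutation tests). The relation of miR-133a-3p also lost it without knockout replicate 1 (adjusted p = 0.054), knockout replicate 2 (0.056), control replicate 4 (0.056) or control replicate 5 (0.073), by permutation tests. Within knockout and control libraries r was 0.72 and 0.92 for miR-1a-3p and 0.94 and 0.67 for miR-133a-3p.

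The 2 arms of miR-133a had r = 0.56 (permutation p = 0.097, adjusted p = 0.12) and rho = 0.58 (permutation p = 0.090, adjusted p = 0.11), with r = 0.67 without control replicates 3 and 5. Within knockout and control libraries r was 0.42 and 0.48. For miR-206-3p and miR-133b-3p, neighbours on chromosome 1, r was -0.39 (permutation p = 0.28, adjusted p = 0.28) and rho -0.26 (permutation p = 0.47, adjusted p = 0.47). Their r turned to 0.60 without knockout replicate 2 and control replicate 3, was -0.03 without control replicate 3 alone, and was -0.71 and -0.14 within knockout and control libraries. With library totals only it was -0.78 (adjusted p = 0.034, permutation test), so its size depends on the scaling.

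The non-member miRNAs most like miR-133a-3p in log2 CPM over the 10 libraries were miR-29c-3p and miR-29a-3p (r = 0.98 and 0.97), which target collagen transcripts, miR-378a-3p (0.97), miR-378b (0.96) and miR-30c-2-3p (0.96). miR-29c-3p was at 2153 ± 583 CPM in knockout and 3173 ± 1138 CPM in control libraries, and miR-378a-3p, encoded within Ppargc1b, at 46438 ± 16892 CPM in knockout and 68462 ± 21262 CPM in control libraries. miR-378a-3p was also the most like miR-133b-3p (r = 0.99). Those most like miR-1a-3p formed another set: miR-181b-5p (r = 0.91), miR-192-5p (0.90), miR-26b-5p (0.89), miR-23a-3p (0.89) and miR-195a-5p (0.87). For the rarer members the closest were miR-101a-3p for miR-1a-1-5p (0.99), miR-130a-3p for miR-1a-2-5p (0.92), miR-542-5p for miR-133a-5p (0.91) and miR-32-3p for miR-206-3p (0.90). These are the highest of 442 values of r per member over 10 libraries, given as a description without a test.

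Spread between libraries differed among members. In control libraries the coefficient of variation was 21.0% for miR-133a-3p, 27.1% for miR-133a-5p, 28.8% for miR-133b-3p, 34.8% for miR-1a-3p and 65.8% for miR-1a-2-5p. The median over all tested miRNAs was 26.8%. For miR-1a-2-5p, control replicate 3 had 4.68 CPM and the other controls at most 2.30 CPM. In knockout libraries miR-133a-3p was at 17.9%, miR-133b-3p at 24.2%, miR-1a-3p at 25.7%, miR-1a-2-5p at 36.7% and miR-133a-5p at 40.1%, beside a median of 24.1%. In scaled CPM the most abundant miRNA, miR-1a-3p, was thus not the most steady one. Its share of unscaled counts, 30.7% ± 4.66 in knockout and 32.5% ± 5.79 in control libraries, varied less relative to its mean. The spread of miR-1a-3p therefore depends on the scaling. Counting error is negligible for it at 2079181 to 6054819 counts per library. The related rows miR-1b-5p, miR-1b-3p and miR-133c had summed levels of 0.694 to 1.14 CPM in knockout and 0.176 to 1.11 CPM in control libraries, and 0 of these 3 passed the low-count filter. miR-133b-5p and miR-206-5p were not analysed here.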

How the data were processed

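The 10 small RNA libraries from heart were counted per mature miRNA. The authors deposited raw read counts for 1139 miRNAs without normalization. They also deposited a linear signal, which was each count over its library's DESeq2 size factor in 10 of 10 libraries (relative difference up to 1e-09). GRCm38, STAR, Bowtie, cutadapt 1.10 and DESeq2 are listed, per the submitters' processing notes, with no statement of what each did. Neither the miRNA annotation nor the handling of multi-mapping reads is stated there. Nothing in the labels ties a library to its own animal, and p-values therefore reflect library-to-library spread, possibly technical. No pair of replicates was a duplicate (chi-square per degree of freedom 108 or more).

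Knockout was compared with control over the whole table by edgeR 4.0.16 (R 4.3.3, quasi-likelihood test, TMM factors, filterByExpr, Benjamini-Hochberg over 457 miRNAs, threshold 0.05). Standard errors are the absolute log2 fold change divided by the square root of F. Log2 CPM used a prior count of 2. Ratios used exact permutation tests and correlations 100000 permutations (Python 3.11.15, scipy 1.17.1). Alternatives used DESeq2 1.42.0, limma 3.58.1, other scalings and filters, and each library left out. The fits were tested on simulated data. Replicate numbers 1 to 5 occur in both groups without a stated meaning, and for that reason they were not taken as pairs in the main fit. Deviations from the group means correlated at 0.45, 0.38, -0.08, 0.40 and -0.12 for numbers 1 to 5, with 3 of 5 over 0.1. Whether the numbers mark pairs or batches cannot be told from the labels, so fits with the number as a block are given as alternatives. The members, lists and tests were chosen with earlier results of these data known. All 7 members are reported, and likeness was ranked by Pearson r, with the top 5 for miR-1a-3p and miR-133a-3p and the top 1 for the others. The floor of 3 counts covers counting error only.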

Additional observations from a re-analysis of the deposited data

Results flagged for a closer look

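Each of the 7 levels, the 8 log2 ratios, the summed share of the members and the library total was searched, in knockout and in control libraries, for 1 value standing apart. The measure was Dixon's ratio, the distance to the next value over the whole range, with a 95% critical value of 0.71 at 5 libraries. It was exceeded in 1 of 34 sets, and chance alone gives about 1 in 20. Knockout replicate 4 had a log2 ratio of miR-133a-3p over miR-499-5p of -1.38, while the other knockouts lay between -0.90 and -0.85 (ratio 0.904). Control replicate 3 came close for miR-1a-3p over its 5p arms, with a log2 ratio of 12.5 against 13.7 to 14.2 in the other controls (ratio 0.704, under the critical value).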

How the results depend on the processing

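The count of 0 miRNAs and 0 members past the threshold was the same in all 19 alternative fits, and all 131 alternative fold changes of members kept their direction. Over these, miR-133a-3p ran from -0.54 to -0.35, miR-133b-3p from -0.67 to -0.44, miR-1a-3p from -0.32 to -0.06, miR-1a-1-5p from -0.55 to -0.22, miR-1a-2-5p from -0.80 to -0.12, miR-133a-5p from -0.54 to -0.13 and miR-206-3p from 0.0031 to 0.27 on the log2 scale. With 1 library left out, the unadjusted p of miR-133a-3p ran from 0.0098 to 0.067 and that of miR-133b-3p from 0.0093 to 0.080, and 5 and 4 of the 10 fits stayed under 0.05. With the replicate block, miR-133a-3p was at -0.45 (edgeR, unadjusted p = 0.0056, adjusted p = 0.18) and miR-133b-3p at -0.54 (edgeR, unadjusted p = 0.0021, adjusted p = 0.15). Both unadjusted p were lower there than in the fit without the block. No call changed, and 72 of 457 miRNAs had an unadjusted p under 0.05. That count was 29 in the fit without the block, 14 with library totals only, 102 of 1105 without a filter, 16 of 282 with the stricter filter (10 CPM in 5 libraries), and 6 to 84 with 1 library left out. Of the 10 libraries, 4 correlated best with their own number. Over all miRNAs the median was 0.14 with library totals only, against 0.03 with TMM.

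With medians in place of means, 3 ratio differences turned: 0.0058 for miR-133a-3p over miR-1a-3p, 0.081 for miR-133a-3p over miR-133a-5p and -0.11 for miR-1a-3p over its 5p arms. With 1 library left out, differences ran from -0.36 to -0.06, -0.13 to -0.05, -0.22 to 0.056, -0.069 to 0.35, -0.059 to 0.28, 0.40 to 0.85, 0.04 to 0.23 and -0.24 to 0.0033, in the order of the plot of ratios. Blocked ratios cannot go below an exact p of 0.063.

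For correlations, library totals only gave 0.038 (miR-1a-3p with miR-133a-3p, 0.37 with totals without the members), 0.66 (miR-1a-3p with miR-499-5p), 0.54 (miR-133a-3p with miR-499-5p) and -0.78 (miR-206-3p with miR-133b-3p), the last -0.71 with totals without the members. Chosen after seeing the data, leaving out 1 library gave 0.47 to 0.90 for miR-1a-3p with miR-133a-3p, 0.99 to 1.00 for miR-133a-3p with miR-133b-3p, 0.80 to 0.89 and 0.70 to 0.94 for those with miR-499-5p, 0.42 to 0.67 for the arms of miR-133a and -0.60 to -0.03 for miR-206-3p with miR-133b-3p. The cause of these changes was not tested. Depth limits miR-1a-2-5p, at 9 to 40 counts.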
